A study of Mus musculus with 8 samples.

Results

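The zinc finger genes Zfp500 to Zfp999 are protein-coding mouse genes that were named in series as proteins with zinc fingers were recognised. Members were the autosomal protein-coding genes of the RefSeq annotation of mm10 whose symbol is Zfp followed by a number of 500 or more with 3 digits, with or without a trailing letter. The rule found 216 genes among 20661 autosomal protein-coding genes, and it used no measured value. DNA methylation was read by reduced representation bisulfite sequencing (RRBS), which sequences CpG-rich restriction fragments after unmethylated cytosines have been converted, so that each read calls a cytosine of a CpG methylated or unmethylated. The 8 libraries came from I1DN leukaemic progenitor cells (cKit+/Cd11b-; the abbreviation I1DN is the labels' own) of transplanted mice. The 4 groups of mice were given Vehicle, the IDH1-mutant inhibitor AG120 (ivosidenib), AZA (azacitidine, which blocks DNA methyltransferases) or AG120 together with AZA, called the combination below. Each group had 2 libraries, every group carried the same I1DN leukaemia, and treatment lasted 5 days. The labels give neither the strain and age of the mice nor whether the libraries of a group came from different mice, so p-values measure only the spread between these libraries.

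Most zinc finger proteins of this kind carry an array of C2H2 fingers, each of which can contact a few bases of DNA. Many, including most of the large clustered families, also carry a KRAB domain, which binds Trim28 (KAP1) and through it brings in Setdb1, a histone H3 lysine 9 methyltransferase, and DNA methylation. A well known task of these repressors is to keep endogenous retroviruses and other repeats silent. The genes lie in clusters of related copies, so short reads from 1 copy can be placed on another, and values of clustered members carry that uncertainty. A promoter rich in CpG is usually unmethylated in blood progenitors whereas the body of a gene is usually methylated, and this is background to the values that follow.

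Each gene was divided into 3 units, and reads were summed over each unit. A gene end comprised 1000 bp outside the gene and 500 bp within it, counted from the annotated end. The end at which transcription starts is called the start end, the other the far end, and what lies between them the rest of the gene. The RefSeq promoter table gave the strand of 184 members; for the other 32, ends are called lower or upper by coordinate. A unit was kept when each library read 3 or more positions of it with 20 or more reads in total. Of 432 member ends, 105 were kept (79 start ends, 7 far ends and 19 ends of genes without a strand), and 225 held no position of the table at all. Of the 105 kept ends, 17 also hold an end of another protein-coding gene, so their reads may belong to either gene. The start ends of Zfp580 and Zfp784 hold the same reads and are both counted. Of 216 rests, 106 were kept. Altogether 149 members had a unit and 67 had none, so every count below concerns the members that RRBS reached. The same rule kept 10650 ends and 11233 rests of all genes.

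Libraries held between 90373925 and 130796962 CpG calls, and the share of methylated calls was 34.1% and 32.6% with Vehicle, 41.5% and 49.9% with AG120, 39.2% and 36.9% with AZA, and 50.5% and 48.0% with the combination. The AG120 and combination libraries read fewer positions than the others, from 1386488 to 1749778 against 1831177 to 1994393. The libraries sampled largely different positions: only 21 member ends and 22 member rests had at least 3 positions with 10 or more reads in all 8 libraries. A difference between libraries in the level of a unit can therefore be a difference in the positions read. Over the kept ends of all genes, the correlation of levels between libraries (across units, which are not replicates) was 0.837 to 0.913 within a group and 0.841 to 0.901 between groups. Here a level is the percentage of reads that called the cytosine methylated, ± gives the SD of a group's 2 libraries, and the upper limit for a level of 0 is 3 reads of the total. Such limits cover counting error only, because PCR reads are not independent molecules.

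Promoter sequences of 6 members are shown because they span the levels found, from 0% to the highest promoter window measured, and because Zfp507 and Zfp982 hold equal numbers of CG. Each runs from 250 bases before to 50 bases after the RefSeq start on mm10, 5′ to 3′ on the strand of the gene, and capitals mark every CG. Zfp507 lies at chr7:35802940-35803239 (minus strand) and holds 16 CG, Zfp983 at chr17:21650361-21650660 (plus strand) holds 7, Zfp746 at chr6:48086544-48086843 (minus strand) holds 39, Zfp553 at chr7:127232811-127233110 (plus strand) holds 23, Zfp618 at chr4:62965317-62965616 (plus strand) holds 59, and Zfp982 at chr4:147442864-147443163 (plus strand) holds 16.
Zfp507: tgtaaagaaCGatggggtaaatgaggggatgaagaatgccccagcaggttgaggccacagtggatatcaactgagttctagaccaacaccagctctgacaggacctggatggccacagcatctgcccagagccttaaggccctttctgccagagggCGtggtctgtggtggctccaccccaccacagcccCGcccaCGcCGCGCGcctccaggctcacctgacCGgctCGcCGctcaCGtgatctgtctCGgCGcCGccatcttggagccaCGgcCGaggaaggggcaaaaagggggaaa
Zfp983: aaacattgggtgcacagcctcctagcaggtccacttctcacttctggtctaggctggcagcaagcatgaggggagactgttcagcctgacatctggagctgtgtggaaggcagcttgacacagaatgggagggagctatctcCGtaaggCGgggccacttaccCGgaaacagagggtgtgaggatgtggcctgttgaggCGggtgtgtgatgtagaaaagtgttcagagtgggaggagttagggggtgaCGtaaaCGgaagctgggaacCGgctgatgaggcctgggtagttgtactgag
Zfp746: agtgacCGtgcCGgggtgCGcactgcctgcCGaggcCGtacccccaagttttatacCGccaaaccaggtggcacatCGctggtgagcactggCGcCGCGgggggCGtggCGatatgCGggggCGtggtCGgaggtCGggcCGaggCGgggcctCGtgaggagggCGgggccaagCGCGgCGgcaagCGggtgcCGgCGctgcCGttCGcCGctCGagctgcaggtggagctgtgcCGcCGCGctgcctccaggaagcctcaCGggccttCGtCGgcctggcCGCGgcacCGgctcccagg
Zfp553: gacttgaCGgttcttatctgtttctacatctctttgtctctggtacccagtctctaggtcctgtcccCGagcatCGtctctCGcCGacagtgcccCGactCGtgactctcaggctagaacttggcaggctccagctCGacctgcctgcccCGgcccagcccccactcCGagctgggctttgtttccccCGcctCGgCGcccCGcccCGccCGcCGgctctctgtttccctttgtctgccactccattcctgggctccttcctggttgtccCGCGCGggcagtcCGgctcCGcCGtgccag
Zfp618: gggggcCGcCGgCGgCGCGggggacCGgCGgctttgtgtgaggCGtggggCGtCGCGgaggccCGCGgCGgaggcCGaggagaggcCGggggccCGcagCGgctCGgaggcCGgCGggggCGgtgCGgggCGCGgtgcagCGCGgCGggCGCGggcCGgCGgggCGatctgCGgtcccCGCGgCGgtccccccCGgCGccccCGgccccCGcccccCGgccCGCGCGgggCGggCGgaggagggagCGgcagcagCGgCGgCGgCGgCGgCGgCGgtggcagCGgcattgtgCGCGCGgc
Zfp982: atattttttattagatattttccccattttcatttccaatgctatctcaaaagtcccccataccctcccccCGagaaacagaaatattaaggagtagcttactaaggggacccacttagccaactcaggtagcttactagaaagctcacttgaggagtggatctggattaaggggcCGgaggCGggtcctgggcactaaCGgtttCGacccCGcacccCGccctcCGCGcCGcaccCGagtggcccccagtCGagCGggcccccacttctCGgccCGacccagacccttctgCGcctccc

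Within the window printed for Zfp507, 0 methylated reads were seen in any of the 8 libraries, over 9 positions and at least 36 reads. In the window of Zfp746, which encodes the KRAB protein PARIS, a repressor of Ppargc1a, the level was 0% in the Vehicle, AG120 and combination libraries and 0.372% and 0.923% in the AZA libraries. The Zfp618 window, with 59 CG, held methylated reads in every library, from 6.38% to 23.3%, with a mean of 13.7%. As few as 14 of its positions were read in a library. Zfp618 binds Uhrf2, a reader of 5-hydroxymethylcytosine. The Zfp982 window had a mean of 40.1%, with 53.9% and 70% with Vehicle, 34.7% and 55.0% with AG120, 0% and 9.35% with AZA, and 42.9% and 54.9% with the combination. Both windows hold 16 CG. The positions read had no methylated read in Zfp507 and the highest level of any member promoter measured (37 windows) in Zfp982. The 9 positions read in Zfp507 cover only part of its 16 CG, whereas 32 positions were read in Zfp982. The Zfp982 window was chosen after its values were seen, and its low AZA values rest on 260 and 246 reads; the whole start end of Zfp982, described below, was not low with AZA.

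The RefSeq table held a promoter inside the start end for 150 members. Their windows held a median of 11 CG (range 2 to 59), against 14 over 14216 genes. All 150 held at least 1 CG, as did 94.6% of all promoters of that length. The motif CCGG, cut site of MspI, the enzyme commonly used in RRBS (a motif that is its own reverse complement, and overlapping the motif CG), was present in 105 of 150 member windows (70%) and in 62.6% of all. Members whose start end was kept had a median of 18 CG and those not kept 8, so the measured start ends lean to CpG-rich promoters. In the 37 windows that passed the same minimum the median level was 1.98%, and 36 of the 37 lay under 20%, the exception being Zfp982.

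Start ends whose promoter held few CG also had mean levels under 20% over the libraries where they could be read. Of 16 member start ends whose promoter held 10 or fewer CG, 0 stood at 20% or more, whereas 208 of 624 such start ends of all genes did (33.3%). With a limit of 8 CG the counts were 0 of 12 members against 38.8% of 389 genes, and with 12 CG 0 of 23 against 28.9% of 900. CG were counted in the promoter window only, whereas the level is that of the whole start end, so the cytosines read may lie outside that window. These limits were chosen after the data were seen, and the comparison is a description without a test. Zfp983, with 7 CG, is 1 of these promoters. All 5 member start ends at 20% or more that had a promoter sequence held between 16 and 25 CG. Among them, Zfp872 had no position of its promoter window read in any library.

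Start ends of the members were nearly free of methylation. Their median level over the 8 libraries was 2.13% (79 start ends), against 1.76% over all 7750 start ends. Of the 79, 62 lay under 5% (78.5%, against 75% of all), 72 under 20% (91.1%, against 88.9%), 5 between 20% and 80% and 2 above 80%. The gap between the highest and the lowest library had a median of 7.70 points, against 6.33 for all start ends.

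**Figure D1:**
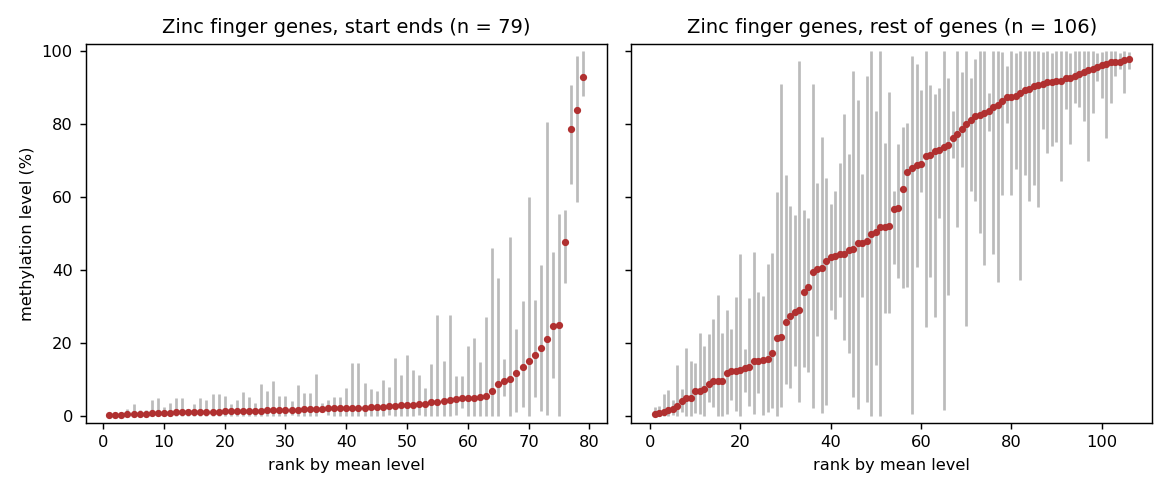
Methylation level (%) of the kept member units, ranked by mean: start ends on the left (n = 79) and rests on the right (n = 106). Each point is the mean of 8 libraries and each grey line runs from the lowest to the highest library; 72 start ends lie under 20%, whereas rests spread over the whole scale with a median of 54.3%.

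The lowest ends were those of Zfp746, Zfp747, Zfp707, Zfp507 and Zfp956, with means from 0.125% to 0.353%. The Zfp746 start end (chr6:48086487-48087986) had 0 methylated reads in 6 libraries, and the AZA libraries stood at 0.321% and 0.678%. In those 6 libraries a count of 0 allows a level of up to 0.0596% to 1.19%. The start end of Zfp507 (chr7:35802501-35804000) ranged from 0% to 1.05%, and that of Zfp747 (chr7:127375551-127377050) from 0% to 0.824%.

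Mean levels were higher in bins farther upstream of the gene start, but the bins did not hold the same members. Over bins of 250 bp, the mean level of member start ends was 44.5% from -1000 to -750 bp relative to the start, 17.9%, 10.6% and 7.19% in the next 3 bins, and 5.73% and 6.40% in the first and second bin inside the gene. In this outermost bin both AZA libraries lay below both Vehicle and both combination libraries, and the AG120 libraries overlapped every other group. The group means were 47.6% ± 3.34 with Vehicle, 43.3% ± 9.70 with AG120, 35.8% ± 3.04 with AZA and 51.2% ± 12.1 with the combination. The outermost bin held only 5 to 8 members in a library, so its means compare partly different genes. In the next bin, with 7 to 11 members in a library, the reads of Zfp872 stood at 85.7% to 100%. The part of this unequal make-up in the differences between bins and between groups was not tested. In the first 250 bp of the gene, with 60 to 69 members in a library, the means were 5.72% ± 0.101, 5.45% ± 0.730, 6.70% ± 0.601 and 5.03% ± 0.315 in the same order.

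**Figure D2:**
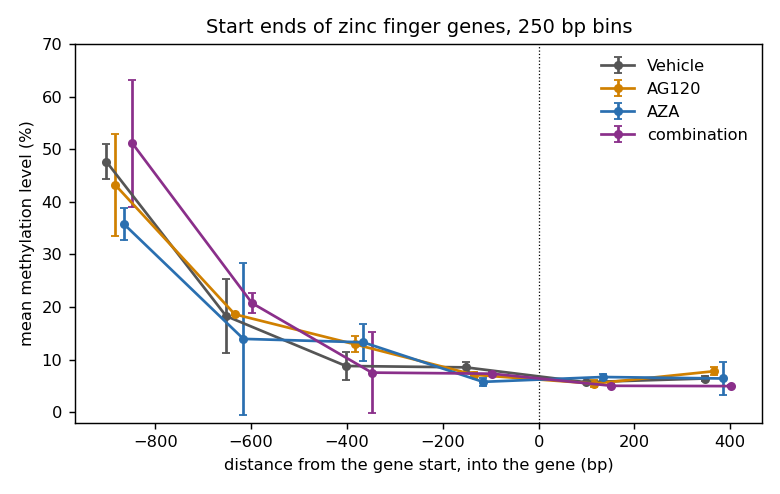
Mean methylation level (%) of member start ends against distance from the annotated gene start (bp, positive into the gene), in bins of 250 bp. Points are group means of 2 libraries, bars their SD, and groups are shifted sideways for legibility. All 4 groups run from 35.8% to 51.2% in the outermost bin to 4.97% to 7.80% in the innermost, and the bins do not hold the same members.

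A small number of member ends were methylated. The start end of Zfp541 (chr7:16060775-16062274), a gene needed in meiosis of male germ cells, had the highest level of all member start ends. It stood at 96.3% and 88.8% with Vehicle, 87.7% and 94.3% with AG120, 94.5% and 93.0% with AZA, and 100% and 88.3% with the combination. The lowest library was thus at 87.7%, the groups overlapped, and the rest of Zfp541 was also methylated, at a mean of 97.6%.

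Zfp872 (chr9:22187166-22188665) had a mean start-end level of 83.9%, with 58.7% and 97.6% with Vehicle, 97.5% and 84.4% with AG120, 74.3% and 61.9% with AZA, and 98.8% and 98.4% with the combination. All its reads lay upstream of -500 bp or beyond 250 bp inside the gene, so the promoter itself was not read in any library. Its reads split by place: between -750 and -500 bp the level was 85.7% to 100% in every library, and both combination libraries had 0 reads in the bin beyond 250 bp inside the gene, where the other libraries ranged from 43.1% to 100%. The higher level of the combination libraries thus moves with where their reads lay, and its part in the difference was not tested. Zfp996 (chr12:18386491-18387990) had a mean of 78.7%, with 73.0% and 90.8% with Vehicle, 86.0% and 80.3% with AG120, 63.7% and 73.3% with AZA and 76.2% and 86.0% with the combination.

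Zfp982 (chr4:147442114-147443613) was intermediate in every library, with 43.0% and 51.3% with Vehicle, 36.4% and 54.3% with AG120, 56.3% and 49.4% with AZA, and 39.9% and 50.2% with the combination. The groups overlapped. Zfp536, a factor of neural differentiation, averaged 24.9% at its start end (chr7:37773540-37775039) but ranged from 0% to 55.3%. Zfp503 averaged 24.5% at its start end (chr14:21989102-21990601), from 10.4% to 44.9%, and Zfp961 21.1% (chr8:71950048-71951547). Zfp961 was read at 80.6% and 1.79% with Vehicle, 40.6% and 17.2% with AG120, 0.0661% and 19.0% with AZA, and 0.920% and 8.59% with the combination, so the 2 Vehicle libraries lay far apart.

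Far ends were more often methylated, although only 7 were kept. Zfp688 (chr7:127417963-127419462) stood at 98.6% and Zfp820 (chr17:21815876-21817375) at 95.3%, while the far ends of Zfp771 and Zfp512b stood at 1.11% and 0.938%. Zfp771 and Zfp512b were the only far ends of members under 20%. Among ends without a known strand, the widest spread between libraries was that of Zfp575 (chr7:24587341-24588840), whose window also holds an end of Ethe1. It was read at 17.4% and 54.6% with Vehicle, 85.7% and 81.9% with AG120, 28.3% and 1.21% with AZA, and 52.5% and 84.3% with the combination. The AG120 libraries were above both the Vehicle and the AZA libraries, and in each other group the replicates lay far apart.

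The rest of the member genes covered the whole range of levels. The median was 54.3% (106 rests), close to the 55.2% of all 11233 rests. Of the 106, 27 lay under 20% (25.5%, against 21.1% of all), 43 between 20% and 80% (40.6%, against 51.7%) and 36 above 80% (34.0%, against 27.2%). Libraries differed more here than at start ends, with a median gap of 34.5 points between highest and lowest library (34.6 for all rests). In 28 rests (26.4%, against 28.0% of all) that gap was over 50 points.

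Of 43 members with both a start end and a rest, 39 had the higher mean level in the rest, and 28 had it in each of the 8 libraries. The median difference was 40.1 points. The largest differences were those of Zfp619 (96.0 points), Zfp809 (95.6 points) and Zfp775 (94.4 points). Zfp707 and Zfp865, whose strand was not known, had differences of 96.9 and 94.5 points between the rest and the end at the lower coordinate. Zfp809, a KRAB protein that silences murine leukaemia virus and related endogenous retroviruses, went from 1.44% at its start end (chr9:22224667-22226166) to 97.0% in its rest (chr9:22226167-22253617), a stretch that also holds an end of Zfp599.

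In 4 members the rest was lower than the start end by mean. The differences were -11.5 points for Zfp503, -1.55 for Zfp655, -1.24 for Zfp651 and -1.16 for Zfp639. Zfp655 and Zfp639 were among the 5 lowest rests, with Zfp518a, Zfp672 and Zfp771, at means from 0.455% to 1.86%. The rest of Zfp655 (chr5:145232095-145246806) was read at 0% and 2.42% with Vehicle, 0.910% and 0.134% with AG120, 0% and 0% with AZA, and 0% and 0.177% with the combination. The highest rests were those of Zfp619, Zfp541, Zfp707, Zfp775 and Zfp809, between 97.0% and 97.8%.

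Zfp503 and Zfp703 encode NET-family co-repressors that act in the developing striatum and in mammary epithelium. The Zfp703 end at the lower coordinate (chr8:26976336-26977835) stood at 1.5% and that at the upper coordinate (chr8:26980963-26982462) at 73.2%. The upper end was read at 81.8% and 97.1% with Vehicle, 34.3% and 70.3% with AG120, 41.5% and 75.6% with AZA, and 96.7% and 88.4% with the combination. Both Vehicle and both combination libraries were above every library with a single drug. Zfp503 had its highest level at the far end (39.7%) and its lowest in the rest (12.9%).

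Zfp521, a co-factor of haematopoietic and neural progenitors, had a mean of 2.50% at its upper end, with 15.1% in combination replicate 1 and at most 2.63% in any other library. Its rest averaged 44.3%, from 32.5% to 69.3%. Zfp516, which promotes brown fat, averaged 43.8% in its rest, and Zfp536 56.6%. Zfp618 went from 9.39% at its start end (chr4:62964555-62966054) to 87.5% in its rest. Its start end held methylated reads in every library, from 5.41% to 15.4%, and the lowest and the highest value were those of AG120 replicate 2 and AZA replicate 1.

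Zfp568, a KRAB protein that represses a placental transcript of Igf2, stood at 1.30% at its lower end (chr7:29982955-29984454). Zfp644, a partner of the H3 lysine 9 methyltransferases G9a and GLP, stood at 1.32% at its start end (chr5:106696335-106697834). Zfp592, which joins Zfp687, Zfp532 and Zmynd8 in 1 complex, stood at 0.930% at its start end (chr7:80992684-80994183). Zfp609, a partner of Nipbl and Integrator, stood at 0.951% at its upper end and 87.6% in its rest.

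Zfp819, a KRAB protein linked to retroelement silencing, had its start end (chr7:43606135-43607634) read at 30.1% and 21.7% with Vehicle, 13.2% and 15.0% with AG120, 31.6% and 9.56% with AZA, and 5.78% and 5.03% with the combination. Both Vehicle libraries were above both AG120 and both combination libraries, and the AZA libraries lay on either side. No comparison of Zfp819 passed the threshold described below.

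Rests of such silencing genes were low in some cases. Zfp638, which silences unintegrated retroviral DNA, was read in its rest (chr6:83867568-83986371) at 0.788% and 0.782% with Vehicle, 18.5% and 0% with AG120, 0% and 0% with AZA, and 12.9% and 5.53% with the combination. The rest of Zfp644 (chr5:106617239-106696334) was at most 1.11% in 5 libraries and 33.1%, 26.3% and 13.5% in AG120 replicate 2 and both combination libraries. Zfp687 was low throughout its rest (chr3:94995174-95015448), from 1.07% to 7.38%, a stretch that also holds an end of Pi4kb. Zfp532, from the same complex, varied most among these genes at its lower end, where as few as 25 reads gave levels from 0.1% to 70.2%.

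Of the 29 genes on the list of members with a known role, 26 had a unit. Zfp706, a repressor of Klf4 in embryonic stem cells, averaged 1.20% at its upper end (chr15:37006903-37008402). Zfp827, which brings the NuRD complex to telomeres, averaged 40.2% in its rest (chr8:79027986-79193268). Zfp804a, whose human counterpart carries a psychiatric risk locus, averaged 43.4% in its rest (chr2:82050629-82259379), from 28.8% to 58.1%. Zfp750, a regulator of epidermal differentiation, averaged 71.1% in its rest (chr11:121511476-121518842) but was read at 35.1% and 100% in the Vehicle libraries alone.

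The clearest contrast between libraries at the start ends was the share with no methylated read at all. Among the 79 member start ends, 10 and 9 had 0 methylated reads in the Vehicle libraries, 34 and 37 in the AG120 libraries, 13 and 12 in the AZA libraries, and 37 and 34 in the combination libraries. As shares these were 12.7% and 11.4%, 43.0% and 46.8%, 16.5% and 15.2%, and 46.8% and 43.0%. All 4 libraries with AG120 were above all 4 without it, and the ranges did not overlap.

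Over all 7750 start ends too, the 4 libraries with AG120 were above the 4 without it. The shares were 13.2% and 11% with Vehicle, 26.5% and 25.3% with AG120, 18.8% and 15.9% with AZA, and 35.7% and 33.3% with the combination. The median start-end level of members was 1.52% and 1.51% with Vehicle, 0.0456% and 0.0334% with AG120, 1.05% and 1.71% with AZA, and 0.180% and 0.0693% with the combination. For all genes the AG120 medians were 0.666% and 1.02% and the combination medians 0.234% and 0.347%. The mean level of member start ends was 7.75% and 7.82% with Vehicle and 7.76% and 6.91% with AG120.

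Depth and covered positions moved with AG120 as well. Median reads per member start end were 3381 and 3482 with Vehicle, 2470 and 2346 with AG120, 2879 and 2792 with AZA, and 1329 and 1728 with the combination. Median positions read were 45 and 42, 33 and 30, 36 and 44, and 24 and 26. With 200 reads drawn from each member start end of at least that depth (68 to 78 start ends in a library), the expected share without a methylated read was 30.8% and 30.1% with Vehicle, 59.0% and 58.3% with AG120, 40.2% and 30.9% with AZA, and 50.3% and 56.9% with the combination. In these counts of 200 reads the 4 libraries with AG120 were above the 4 without it, while the number of positions read still differed. For all genes the thinned shares were 29.8% and 27.9%, 43.9% and 40.6%, 38.3% and 33.7%, and 50.4% and 48.4%. The part of the number of covered positions in this difference was not tested. This count was made after the data were seen, no p is given for it, and the members' share was not tested against that of all genes.

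**Figure D3:**
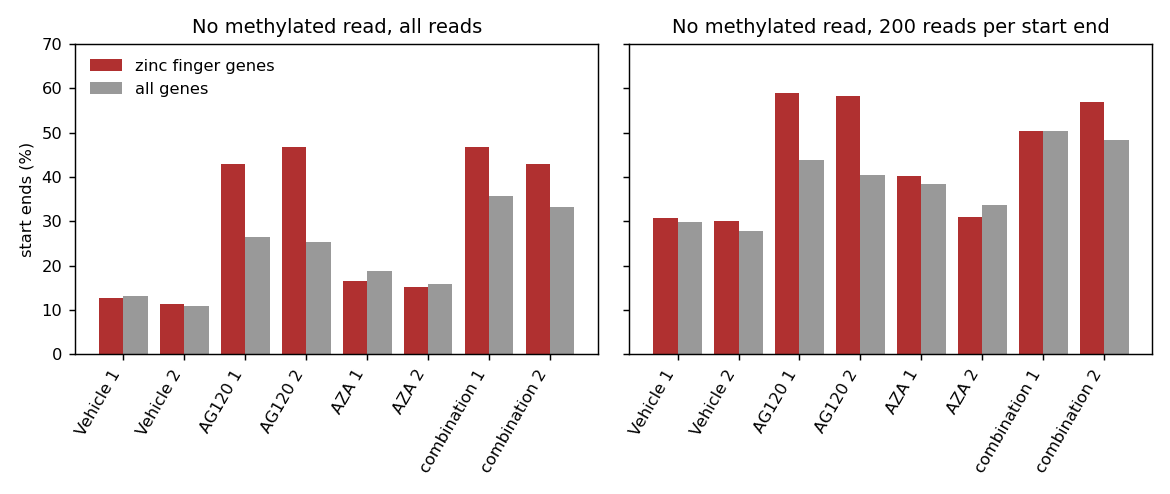
Share of start ends (%) with no methylated read in each library, for zinc finger genes (79) and all genes (7750), with all reads on the left and with 200 reads per start end on the right. On the left the members stand at 43.0% to 46.8% in the libraries with AG120 and at 11.4% to 16.5% in those without it; on the right the ranges are 50.3% to 59.0% and 30.1% to 40.2%.

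The comparisons ask what each drug, and both together, did to methylation. Every comparison with Vehicle uses the same 2 Vehicle libraries, and those with a single drug share that drug's libraries. With edgeR's quasi-likelihood test and Benjamini-Hochberg adjustment over all units of a class, 0 of 105 member ends and 0 of 106 member rests passed an adjusted p of 0.05 in any of the 8 contrasts (5 pairs of groups, the average effect of each drug and their interaction). Unless another test is named, adjusted p-values below are from this test. The background was the same, with 0% of all ends and 0% of all rests called in each contrast. At an unadjusted p under 0.05 there were 3 to 8 member ends per contrast and 3 to 15 member rests. For AG120 against Vehicle these were 3 ends (background 3.35%) and 8 rests (background 4.46%), and for AZA against Vehicle 4 ends (background 2.4%) and 6 rests (background 2.55%). For the combination they were 5 ends (background 5.08%) and 10 rests (background 7.53%) against Vehicle, 6 ends (background 4.74%) and 13 rests (background 6.49%) against AZA, and 8 ends (background 4.48%) and 8 rests (background 4.77%) against AG120. The interaction gave 4 ends (background 2.81%) and 3 rests (background 3.61%), the average AG120 effect 7 ends (background 4.81%) and 15 rests (background 7.53%), and the average AZA effect 4 ends (background 3.31%) and 9 rests (background 4.12%).

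Other tests of the same counts called some members. Among ends, the edgeR likelihood ratio test called 0 members in AG120 against Vehicle (background 0%), AZA against Vehicle (0%), the combination against Vehicle (0.131%) and against AZA (0.62%) and the interaction (0.469%). It called 2 in the combination against AG120 (1.04%), 3 for the average AG120 effect (1.85%) and 4 for the average AZA effect (0.836%). DESeq2 called 0 member ends for AG120 and for AZA against Vehicle (0% each), 1 each for the combination against Vehicle (0.366%), against AZA (0.892%) and the interaction (0.657%), 4 for the combination against AG120 (1.27%), 3 for the average AG120 effect (2.34%) and 4 for the average AZA effect (1.07%). The ends called by both tests were those of Zfp553, Zfp704, Zfp760 and Zfp983 for the average AZA effect, Zfp593 and Zfp871 for the average AG120 effect, and Zfp760 and Zfp786 for the combination against AG120.

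Among rests, the likelihood ratio test called 3 members in AG120 against Vehicle (background 0.792%), 1 in AZA against Vehicle (0.445%), 3 in the combination against Vehicle (1.38%), 4 against AZA (1.55%) and 3 against AG120 (1.6%). It called 2 for the interaction (0.89%), 3 for the average AG120 effect (1.14%) and 4 for the average AZA effect (1.05%). DESeq2 called 1 (0.605%), 1 (0.223%), 7 (2.52%), 4 (2.1%), 5 (1.85%), 0 (0.997%), 10 (2.56%) and 1 (1.09%) in the same order. Zfp593, Zfp808 and Zfp865 were the rests called by both for the combination against Vehicle. limma on log2 ratios called 0 units of either class (background 0%).

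Where both libraries of 1 group were above or below both of the other, the groups were counted as not overlapping. For AG120 against Vehicle, 13 member ends were higher (12.4%, background 11.7%) and 31 lower (29.5%, background 21.3%). For AZA against Vehicle 13 were higher (12.4%, background 12.7%) and 18 lower (17.1%, background 19.5%). For the combination against Vehicle 5 were higher (4.76%, background 10.7%) and 26 lower (24.8%, background 26.5%). These sets share the Vehicle libraries. Differences were small in most: the median difference of member ends was -0.744 points for AG120 against Vehicle (67 lower, 36 higher), against -0.107 points for all ends.

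Between the treated groups, 12 member ends were higher in the combination than with AZA (11.4%, background 12.2%) and 21 lower (20%, background 21.2%). Against AG120, 14 were higher in the combination (13.3%, background 11.9%) and 13 lower (12.4%, background 17.4%). Of the 31 ends lower with AG120 than with Vehicle, 4 were lower by at least 10 points, namely Zfp503, Zfp703 (upper end), Zfp808 and Zfp819 (all ends, 2.41%). Higher by at least 10 points were Zfp575, Zfp580 (far end), Zfp651, Zfp760 and Zfp978 (all ends, 3.78%). The start end of Zfp580, which is not the end listed here, averaged 1.07% and holds the same reads as that of Zfp784.

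**Figure D4:**
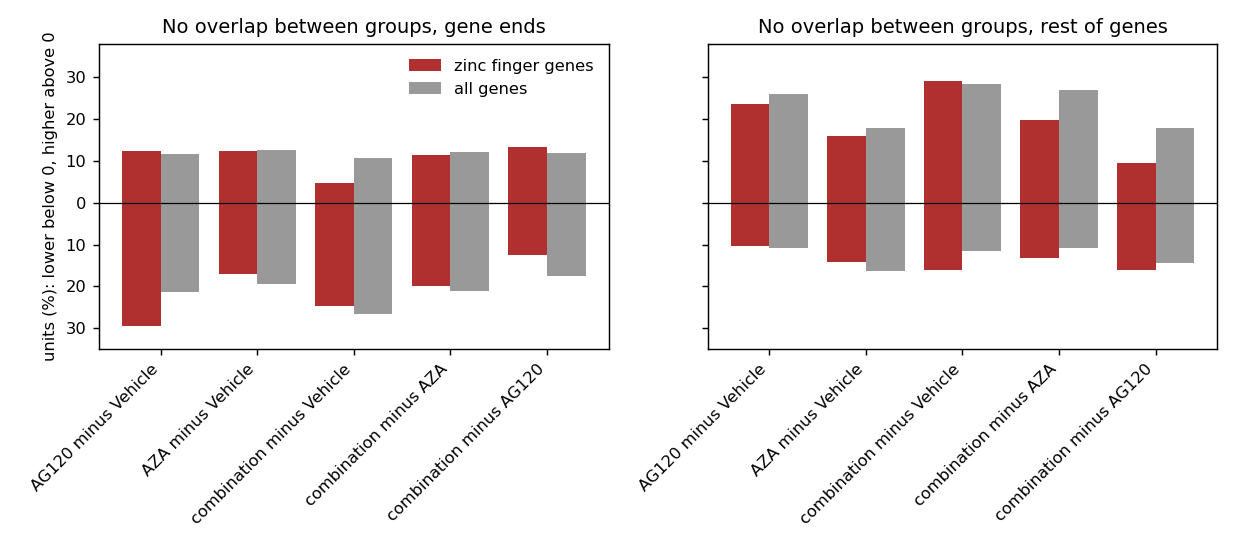
Share of units (%) whose groups did not overlap in each of the 5 pairwise comparisons, higher above 0 and lower below 0, for zinc finger genes and all genes; ends on the left, rests on the right. Most pairs of bars lie close together; the pairs farthest apart are ends lower with AG120 than with Vehicle (29.5% against 21.3%) and rests higher in the combination than with AG120 (9.43% against 17.8%).

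In the rests more members were higher than lower, except in the combination against AG120. For AG120 against Vehicle 25 member rests were higher (23.6%, background 26%) and 11 lower (10.4%, background 10.8%), with a median difference of 2.81 points (3.10 for all rests). For AZA against Vehicle 17 were higher (16.0%, background 17.8%) and 15 lower (14.2%, background 16.3%), with a median of -0.0203 points. For the combination against Vehicle 31 were higher (29.2%, background 28.4%) and 17 lower (16.0%, background 11.6%), with a median of 1.92 points (4.33 for all rests). Against AZA the combination had 21 higher (19.8%, background 26.9%) and 14 lower (13.2%, background 10.9%), with a median of 1.51 points (3.86 for all rests). Against AG120 it had 10 higher (9.43%, background 17.8%) and 17 lower (16.0%, background 14.5%), with a median of -1.61 points (0.507 for all rests). Whether members differ from other genes in any of these shares was not tested.

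With all 4 libraries of a drug set against the 4 without it, few members separated. In all, 0 member ends were higher in every library with AG120 (background 0.939%), and 4 were lower (3.81%, background 3.37%). Among rests 6 were higher with AG120 (5.66%, background 5.03%) and 0 lower (background 0.739%). For AZA 1 end was higher (background 0.779%) and 2 lower (background 1.74%), and 2 rests were higher (background 1.25%) and 1 lower (background 1.12%). Higher by at least 10 points were the rests of Zfp574, Zfp800, Zfp821 and Zfp949 with AG120 (all rests, 4.58%) and those of Zfp663 and Zfp764 with AZA (all rests, 1.08%). Apart from Zfp800 these were singled out after their values were seen.

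The rest of Zfp574 (chr7:25076174-25082992) was read at 35.7% and 20.7% with Vehicle, 59.2% and 55.5% with AG120, 26.0% and 27.1% with AZA, and 82.8% and 48.3% with the combination. The average effect of AG120 was 34.1 points (adjusted p = 0.509), higher in 4 of 4 libraries. Zfp821 (chr8:109695752-109724432) stood at 2.56% ± 0.554 with Vehicle, 24.0% and 32.5% with AG120, 1.10% and 2.69% with AZA, and 28.8% and 3.40% with the combination. Its average AG120 effect was 19.9 points (adjusted p = 0.479), but combination replicate 2 lay close to the libraries without AG120. Zfp949 (chr9:88548520-88570586) averaged 16.8% ± 20.8 with Vehicle, 53.6% ± 8.90 with AG120, 18.6% ± 23.3 with AZA and 69.0% ± 31.2 with the combination (adjusted p = 0.661).

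Zfp764 was read in its rest (chr7:127380262-127406335) at 31.7% and 28.3% with Vehicle, 35.6% and 29.2% with AG120, 74.7% and 61.6% with AZA, and 88.9% and 66.4% with the combination. Both groups with AZA were above both groups without it, by 41.7 points on average (adjusted p = 1). This stretch also holds the ends of 2 other genes, 9130019O22Rik and E430018J23Rik. Its reads were placed unequally: the bin from 20000 to 25000 bp, at 92.8% to 100%, gave 224 and 32 reads with Vehicle and 1035 and 1183 with AZA. From 10000 to 15000 bp the level was 27.0% and 15.0% with Vehicle, 16.8% and 2.86% with AG120, 52.6% and 32.6% with AZA, and 75.2% and 47.7% with the combination. From 5000 to 10000 bp it was 20.9% and 7.69% with Vehicle and 0% and 100% with AG120. With AZA it was 0% and 79.6% there, and with the combination 93.1% and 96%. The libraries with AZA did not separate in that bin, which gave 13 reads in AZA replicate 1 and 5639 in combination replicate 1. The part of read placement in the difference was not tested. The rest of Zfp663 (chr2:165351797-165368236) averaged 27.9 points more with AZA than without it (adjusted p = 1).

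**Figure D5:**
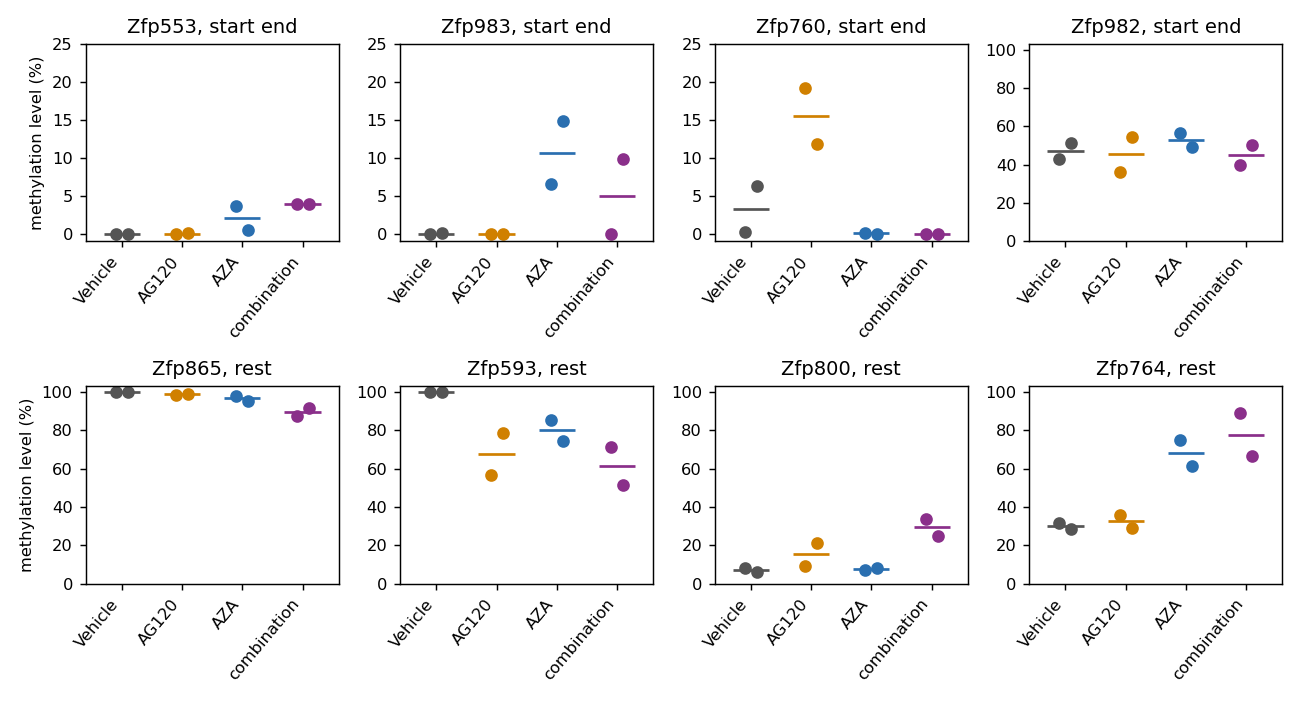
Methylation level (%) of 8 member units by group: start ends of Zfp553, Zfp983, Zfp760 and Zfp982 in the upper row (the first 3 on a scale to 25%) and rests of Zfp865, Zfp593, Zfp800 and Zfp764 in the lower row. Points are libraries and lines are group means; the Zfp865 rest goes from a mean of 99.8% with Vehicle to 89.4% with the combination, and the Zfp764 rest is higher in both groups with AZA.

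Named members of the pairwise comparisons are those with the smallest p, and none passed the threshold. The smallest adjusted p of any member belonged to the rest of Zfp865 (chr7:5020876-5032726). It was read at 99.9% and 99.7% with Vehicle, 98.6% and 98.8% with AG120, 98.1% and 95.1% with AZA, and 87.2% and 91.7% with the combination. The Vehicle libraries were above all others and the combination libraries below all others. Relative to Vehicle the difference was -10.4 points for the combination (adjusted p = 0.0895), -3.18 points for AZA (adjusted p = 0.925) and -1.13 points for AG120 (adjusted p = 0.878). The average AZA effect on this unit was -6.22 points (adjusted p = 0.52). By DESeq2 the adjusted p of the combination against Vehicle was 9.047e-09 and by the edgeR likelihood ratio test 0.0015.

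The Zfp865 rest was read at 357 positions with 6188 reads or more per library, but 0 of these positions had 10 or more reads in all 8. Its reads lay mostly between 9000 and 11000 bp above the lower coordinate. From 9000 to 10000 bp the level was 99.9% and 99.9% with Vehicle, 96.2% and 99.3% with AG120, 100% and 99.1% with AZA, and 79.8% and 89.1% with the combination. From 10000 to 11000 bp it was 99.9% and 100%, 99.1% and 99.9%, 93.7% and 98.1%, and 91.7% and 94.0% in the same order. From 8000 to 9000 bp the level was 99.6% and 97.1% with Vehicle, 99.8% and 95.7% with AG120, and 99.5% and 65.4% with AZA. Combination replicate 2 stood at 88.95% there, and combination replicate 1 had 0 reads. Both combination libraries were thus below all others from 9000 to 10000 bp. Combination replicate 2 was above AZA replicate 1 from 10000 to 11000 bp and above AZA replicate 2 from 8000 to 9000 bp. With 1 library left out at a time the adjusted p ranged from 0.132 to 0.972. The lower end of Zfp865 (chr7:5019376-5020875) stayed between 0.0609% and 3.74%.

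Zfp593, a nucleolar protein of ribosome biogenesis, had the second smallest p among member rests for AZA against Vehicle. Its rest was read (chr4:134243806-134245091) at 100% and 99.9% with Vehicle, 56.5% and 78.6% with AG120, 85.5% and 74.5% with AZA, and 71.4% and 51.7% with the combination. Both Vehicle libraries were above all 6 treated ones. The difference of AZA from Vehicle was -19.9 points (adjusted p = 1), and that of the combination -38.4 points (adjusted p = 0.478). This rest holds 25 positions, with as few as 76 reads in a library. At its upper end (chr4:134245092-134246591) Zfp593 stood at 4.97% and 2.64% with Vehicle, 0.0690% and 0.594% with AG120, 1.09% and 0.778% with AZA, and 0% and 0.0359% with the combination. The difference of the combination from Vehicle there was -3.79 points (adjusted p = 0.933).

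The rest of Zfp800 (chr6:28211048-28397533) was read at 8.07% and 6.22% with Vehicle, 9.09% and 21.4% with AG120, 6.92% and 8.34% with AZA, and 33.9% and 24.8% with the combination. The combination libraries were above all others. The difference was 22.2 points against Vehicle (adjusted p = 0.384) and 21.8 points against AZA (adjusted p = 0.58). The reads of this long unit were spread unevenly. Between 40000 and 60000 bp above the lower coordinate the level was 0.0164% to 1.21% in every library, and that stretch gave 17614 and 25954 reads with Vehicle, 8859 and 9615 with AG120, 15508 and 16090 with AZA, and 6104 and 2313 with the combination. In the first 20000 bp the level was 66.7% and 19.6% with the combination, and from 7.63% to 29.6% in the other libraries. Fewer reads from the unmethylated stretch thus moved with the higher level of the combination libraries, and their part in the difference was not tested. On the 5 positions read 10 times or more in all libraries, the difference of the combination from Vehicle was 0 points.

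At start ends, AZA against Vehicle was led by Zfp983 (chr17:21649572-21651071). It was read at 0.0221% and 0.0549% with Vehicle, 0% and 0% with AG120, 6.54% and 14.9% with AZA, and 0% and 9.86% with the combination. Both AZA libraries were above every library without AZA, and the combination libraries split. AZA stood 10.7 points above Vehicle (adjusted p = 1). All reads came from 8 positions, and combination replicate 1 had only 20 reads, for which a count of 0 allows a level of up to 15%. In the AG120 libraries it allows 0.115% and 0.14%. These positions lie in the promoter window printed above.

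Among member start ends, Zfp553 had the smallest p for the combination against Vehicle. Its window (chr7:127232061-127233560), which also holds an end of Septin1, was read at 0.0255% and 0.0187% with Vehicle, 0.0405% and 0.0445% with AG120, 3.6% and 0.523% with AZA, and 3.94% and 3.98% with the combination. All 4 libraries with AZA were above all 4 without it. The difference was 3.94 points for the combination (adjusted p = 0.933) and 2.04 points for AZA (adjusted p = 1) against Vehicle, and 3.92 points for the combination against AG120 (adjusted p = 1). Without AZA replicate 1 the AZA difference was 0.501 points, and without AZA replicate 2 it was 3.58.

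The methylated reads of Zfp553 did not lie in the same place in each library. In the first 250 bp of the gene AZA replicate 1 stood at 3.47% and combination replicate 1 at 6.08%, while combination replicate 2 stood at 0% there and at 7.93% in the 250 bp before the start. Both AZA libraries held methylated reads between -750 and -500 bp, at 4.6% and 7.73%. The other libraries stood at 0% there, on as few as 3 reads. In the printed promoter window, with 37 positions, the levels were 0.0299% and 0% with Vehicle, 0.110% and 0% with AG120, 2.07% and 1.12% with AZA, and 7.22% and 5.30% with the combination. There too all 4 libraries with AZA were above all 4 without it. DESeq2 gave the average AZA effect on this start end an adjusted p of 0.004956, and the edgeR likelihood ratio test 0.01132.

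For the combination against AG120, the start end with the smallest p was that of Zfp760 (chr17:21706430-21707929). It was read at 0.285% and 6.31% with Vehicle, 19.2% and 11.8% with AG120, 0.102% and 0.0406% with AZA, and 0% and 0% with the combination. Both AG120 libraries were above all others and the 4 libraries with AZA were below all others. The AG120 libraries carried their methylation in different bins of the gene, AG120 replicate 1 at 27.3% from 0 to 250 bp and 0% from 250 to 500 bp, and AG120 replicate 2 at 0% and 16.5%. Combination replicate 2 had 0 reads from 0 to 250 bp. The part of these unequal positions in the difference was not tested. The difference of the combination from AG120 was -15.5 points (adjusted p = 1). A count of 0 in the combination libraries allows levels of up to 0.169% and 0.237%. Zfp786 was the second, 7.65 points higher in the combination than with AG120 (adjusted p = 1).

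Among start ends named for AG120 against Vehicle, Zfp628 (chr7:4914181-4915680) was read at 2.96% and 4.75% with Vehicle, 0% and 0.0213% with AG120, 0.0213% and 0.0128% with AZA, and 6.21% and 0% with the combination. The single-drug libraries were below both Vehicle libraries and the combination libraries lay on either side. The difference was -3.84 points for AG120 (adjusted p = 1) and also for AZA (adjusted p = 1). Zfp692 and Zfp786 had differences of -3.28 and -2.41 points. In the combination against AZA, the start ends of Zfp770, Zfp606 and Zfp871 had differences of -5.67, -4.35 and -4.28 points, with adjusted p of 1 each.

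Zfp704 was read at its upper end (chr3:9609586-9611085) at 2.95% and 2% with Vehicle, 3.08% and 1.81% with AG120, 0% and 0.0732% with AZA, and 0.0613% and 0% with the combination. All 4 libraries with AZA were below all 4 without it. The difference of the combination from Vehicle was -2.45 points (adjusted p = 0.933).

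The rest of Zfp775 (chr6:48602507-48621048) was read at 98.7% and 95.6% with Vehicle, 100% and 100% with AG120, 98.6% and 95.7% with AZA, and 93.2% and 94.4% with the combination. The AG120 libraries were above all others and the combination libraries below all others. The difference of the combination from AG120 was -6.20 points (adjusted p = 0.663). The rest of Zfp759 (chr13:67122159-67141904) showed the widest difference of a named unit, -97.4 points between combination and AZA (adjusted p = 0.615), on only 10 positions and as few as 21 reads. Its Vehicle libraries stood at 100% and 46.0%, so replicates of 1 group were far apart there too.

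Genes that work with KRAB zinc finger proteins were read in the same fit. The list held 31 partner symbols (Trim28, Setdb1, DNA methyltransferases, heterochromatin proteins, histone deacetylases, members of the HUSH complex and others). Of these, 20 had an end and 24 a rest, and 0 passed the threshold in any contrast (edgeR quasi-likelihood, background 0%). Trim28 itself had neither an end nor a rest that was kept, so nothing is known of it here. The ends had low mean levels, from 0.178% for Kmt5b to 4.74% for Uhrf1, with Setdb1 at 0.566%, Dnmt3b at 1.36% and Chd4 at 1.03%. Single libraries were higher in places: the Uhrf1 end stood at 12.9% in Vehicle replicate 1 and 23.2% in AZA replicate 2. In AG120 against Vehicle 6 partner ends were higher and 14 lower (median -0.385 points), and 17 rests higher and 7 lower (median 5.37 points). Among all units 45.6% of ends and 63.1% of rests were higher in the same comparison. The smallest adjusted p among the partners was 0.6096. The label cKit+/Cd11b- could not be checked against expression. The end of Kit averaged 6.16% and its rest 78.9%, and the rest of Itgam, which encodes Cd11b, averaged 92.1%.

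Members were grouped on a few chromosomes, and coverage differed between the groups. Chromosome 7 held 55 members, of which 43 had a unit, with a median of 1.56% over 36 ends and 75% over 28 rests. Chromosome 17 held 27 members, 14 with a unit, with medians of 4.31% (12 ends) and 80% (5 rests). Chromosome 4 held 19, 9 with a unit, with a median of 28.5% over only 4 ends and 81.1% over 9 rests. The methylated ends there belong to Zfp982 and Zfp978, which lie near each other. Zfp978 was read at its lower end (chr4:147123882-147125381) at 26.0% and 39.6% with Vehicle, 45.9% and 51.4% with AG120, 49.2% and 53.9% with AZA, and 84.3% and 67.1% with the combination. The Vehicle libraries were below and the combination libraries above all others. The combination stood 42.9 points above Vehicle (adjusted p = 1), and Zfp978 was singled out after its values were seen.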

How the data were processed

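The authors deposited 1 table for the 8 RRBS libraries. Per the file headers its values are raw counts of methylated and unmethylated reads at each CpG cytosine, without normalization. The submitters' processing notes name, with no roles, Bismark 0.22.3, Trim Galore 0.4.4, bcl2fastq 2.17.1.14, edgeR 3.32, R 4.0.2, SAMtools 1.4.1 and mm10. Neither deduplication nor conversion rate is given in the sources used here. Each count column carried the label of 1 library (0 unused columns). The table held 4006353 positions, 3883480 of them on the 19 autosomes, and 33679 autosomal positions were read 10 or more times in all 8 libraries. Of 1686 positions inside promoter windows of kept members, 1673 (99.2%) lay on a CG of the RefSeq sequence.

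Counts were summed per unit for all autosomal protein-coding genes, ends and rests apart. The model (edgeR 4.0.16, R 4.3.3) had 1 term for each library's coverage and 1 methylation term for each group, all 8 libraries shared it, and contrasts were tested two-sided by quasi-likelihood with robust settings, with Benjamini-Hochberg adjustment over all units of a class at 0.05. The procedure was tested on simulated data. Alternatives were the edgeR likelihood ratio test, DESeq2 1.42.0, limma 3.58.1 on log2 ratios with a pseudocount of 2, other read minimums, position rules, window and weighting, each library left out, and a replicate block. Replicate numbers were not treated as pairs: deviations of same-numbered libraries correlated between -0.0224 and 0.0274. Because the libraries read largely different positions, such low values cannot show whether the libraries were paired.

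Named units were those with the smallest p in each pairwise comparison (3 ends, 2 rests), the 5 highest and 5 lowest ends and rests, the 5 ends with the widest range, and a list of 29 members with known roles. Members and lists were chosen with earlier results of these data known. Genome, protein, exon and CpG island annotation were not used here.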

Additional observations from a re-analysis of the deposited data

Results flagged for a closer look

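Of 76 named member units, 5 moved in opposite directions with AG120 in the absence and in the presence of AZA, in every library of each group. None of these differences passed the threshold of the interaction term (edgeR quasi-likelihood, 0 of 105 member ends and 0 of 106 member rests called). Of the 5, the edgeR likelihood ratio test called 1, the rest of Zfp775 (adjusted p = 0.02917), and DESeq2 and limma called 0. No share over all units is given for the count of 5, so it has no background. Zfp760, Zfp775 and Zfp786 were named for a small p in AG120 against Vehicle or in the combination against AG120. The named units are therefore not a neutral set for this count.

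In the rest of Zfp516, AG120 stood 14.4 points above Vehicle whereas the combination stood -13.2 points from AZA, a difference of -27.7 points. At the upper end of Zfp703 the shifts were -37.2 and 34 points, a difference of 71.1 points. At the start end of Zfp760 they were 12.2 and -0.0711 points, a difference of -12.2 points, the second shift lying at the floor. In the rest of Zfp775 they were 2.86 and -3.37 points, a difference of -6.23 points. At the start end of Zfp786 they were -2.41 and 6.31 points, a difference of 8.72 points.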

How the results depend on the processing

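With the quasi-likelihood test 0 units were called in every contrast. In the order AG120, AZA and combination against Vehicle, combination against AZA, combination against AG120, interaction, average AG120 effect and average AZA effect, the edgeR likelihood ratio test called 0, 0, 14, 66, 111, 50, 197 and 89 ends and 89, 50, 155, 174, 180, 100, 128 and 118 rests. DESeq2 called 0, 0, 39, 95, 135, 70, 249 and 114 ends and 68, 25, 283, 236, 208, 112, 288 and 123 rests. limma called 0 throughout. On positions with 10 or more reads in all libraries, 3 rests were called for the combination against Vehicle and 4 for the average AG120 effect, 0 of them members. With 1 library left out, 0 to 1 rests were called for AG120 against Vehicle (1 without combination replicate 1 or 2) and 0 to 1 for the average AG120 effect (1 without combination replicate 2), again 0 members, and 0 elsewhere. The fit with a replicate block, although no pairing of the libraries by number was seen, called 0 units in every contrast and changed no call. The cause of these differences was not tested.

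Of 252 differences of named units recomputed with the quasi-likelihood test (libraries left out, narrower window, shared positions, replicate block), all 252 stayed uncalled and 0 changed sign, but on shared positions the Zfp800 rest differed by 0 points. The likelihood ratio test and DESeq2 called named units, among them Zfp553, Zfp593, Zfp760, Zfp865 and Zfp983. Median differences of members changed sign in places. The median of member ends for AZA against Vehicle was -0.133 points and ranged from -0.716 to 0.29 over the alternatives, changing sign in 2. The median of rests for the combination against Vehicle was 1.92 points and ranged from -0.486 to 2.48, changing sign in 1. That of rests for AZA against Vehicle was -0.0203 (-0.593 to 1.07, sign changed in 4), and that of ends for the average AZA effect 0.25 (-0.244 to 0.32, sign changed in 3). That of ends for AG120 against Vehicle ranged from -0.919 to -0.0667 and kept its sign. Of 12 values recomputed under alternatives added after the data were seen, 9 moved.

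Shared positions limit these comparisons beside depth. Only 21 member ends and 22 member rests share at least 3 deeply read positions between all libraries, so unit levels compare partly different cytosines.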
